A study of Mus musculus with 4 samples.

Results

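The small leucine-rich proteoglycans are secreted proteins of connective tissue whose core is a curved stack of leucine-rich repeats held between cysteine clusters. They sit on the surface of collagen fibrils, where they set fibril diameter and spacing, and several of them also hold growth factors of the TGF-beta family in the matrix. Class I members carry chondroitin or dermatan sulfate chains, except asporin, while class II members carry keratan sulfate or none, and class III members have fewer repeats. In articular cartilage, tendon, ligament and bone they belong to the non-collagenous matrix proteins that keep the fibril network in order. The family was taken here as 9 genes named by symbol: Bgn, Dcn and Aspn of class I, Fmod, Lum, Prelp and Omd of class II, and Ogn and Epyc of class III. The rule uses names only. All 9 were found among the 50686 Ensembl gene identifiers of the hip libraries and the 54838 of the knee libraries.

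The values came from poly-A RNA libraries of mouse articular cartilage, 4 in all, with 1 library per condition. The hip pair set a Cbfb f/f control, labelled as untreated and without Cre, against tamoxifen-injected Cbfb f/f;Col2α1-CreERT, both from males of 6 weeks by most mentions in the sources used here, which also give a somewhat older age. In the knee pair an oil-injected Cbfb f/f;Aggrecan-CreERT library was set against a tamoxifen-injected one of the same genotype, both from males of 12 weeks. Every group thus carried the floxed Cbfb allele, which encodes the partner subunit of the Runx transcription factors. The Cre of the hip is driven by the Col2a1 promoter and that of the knee by the aggrecan promoter, both active in chondrocytes, and by the study's account Col2a1-CreERT also reaches chondroprogenitor cells. The study describes groups of several mice per experiment but does not say how many gave each library. By its account the knee samples held bone as well as articular cartilage, while those of the hip were cartilage alone. The hip libraries also differ in tamoxifen and in Cre, so Cbfb, tamoxifen and Cre cannot be told apart there. In the knee pair tamoxifen goes together with the Cbfb deletion, so these cannot be told apart there either.

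Counts on genes ranged from 34264456 to 38473120 per library. With 1 library per condition there is no replicate error and no test, and each ratio compares 2 libraries. A log2 ratio divides the scaled count of the library labelled Cbfb-deficient by the control's, after edgeR's TMM scaling and with 0.5 added to each count, and the interval printed with it is the 95% Clopper-Pearson one, which holds counting error alone. Calls were made where the pair held at least 10 counts, the ratio was at least 2-fold and the interval left out 0. Cbfb RNA itself had 2548 counts in the hip control and 2946 in its counterpart (log2 ratio 0.41), and 3796 and 4572 counts in the knee (-0.07, which is positive under library size scaling). Gene counts do not show a deleted exon, so the deletion could not be read from these values.

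The tissue label was checked against cell type markers. Col2a1, the main collagen of cartilage, stood at 9.20 and 6.59 CPM (counts scaled to equal library totals) in the hip control and the library labelled Cbfb-deficient, and at 2550 and 869 CPM in the knee libraries. Acan, the aggrecan gene, stood at 11.5 and 8.33 CPM in the hip and at 25.04 and 36.3 CPM in the knee. Chondrocyte markers (16) summed to 0.0262% and 0.0140% in the hip pair, where 10 were lower and 3 higher beyond counting error. They summed to 0.638% and 0.313% in the knee pair, where 13 were lower and 3 higher. Skeletal muscle genes (20) summed to 19.95% and 20.6% in the hip and to 1.47% and 3.14% in the knee, and Acta1, the skeletal actin gene, alone had 42776 and 19515 CPM in the hip. No marker of any list was at 0 in a library. The hip libraries therefore held little RNA of cartilage markers beside that of muscle. In bulk tissue, fewer cells of a type and less RNA per cell cannot be told apart.

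Runx proteins bind DNA at the sequence TGTGGT or TGCGGT, and Cbfb is their partner, so the promoters were searched for both motifs on both strands. RefSeq windows of 300 bases on build GRCm38.p6 (250 bases before to 50 after the start of transcription) were at hand for 7 of the 9 genes, as 8 windows, since Epyc has 2 starts. A motif was found in 3 of these 8 windows, a share of 37.5%, against 22.4% of all 32851 windows. The 2 promoters that held it before the start are printed from 120 bases upstream to the start, on the plus strand. They belong to Fmod and Ogn, which had the lowest and the highest hip ratio of the family but were not picked for it. Capitals mark the motif, which in both lies on the opposite strand and is read here as its reverse complement. The first base of the motif is 38 bases before the start in Fmod and 65 in Ogn, and each of these windows held 1 match. Epyc held its match 38 bases after one of its starts. No match was found in the windows of Bgn and Prelp, which were also lower in the hip, nor in those of Aspn and Omd. Dcn and Lum were not searched. A match is a stretch of letters and says nothing on its own about binding.
Fmod, chr1:134037134-134037253 (GRCm38.p6): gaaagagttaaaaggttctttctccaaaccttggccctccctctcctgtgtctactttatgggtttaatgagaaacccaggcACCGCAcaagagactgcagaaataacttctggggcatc
Ogn, chr13:49607895-49608014 (GRCm38.p6): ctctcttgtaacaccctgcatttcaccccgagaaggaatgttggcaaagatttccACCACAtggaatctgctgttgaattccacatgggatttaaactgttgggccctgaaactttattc

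The make-up of the family differed between the libraries. Levels between genes were compared as CPM per kilobase of the canonical transcript. In the hip control Fmod stood highest at 91.9 CPM per kilobase, followed by Bgn at 73.9 and Dcn at 73.3, and the counting intervals of Bgn and Dcn overlapped. Lum (19.5) and Prelp (18.9) also overlapped, as did Omd (1.97) and Ogn (1.88), while Aspn lay between these pairs at 13.8. In the hip library labelled Cbfb-deficient the order began with Dcn at 50.8, Bgn at 25.4 and Fmod at 16.0, and no neighbours overlapped. Fmod thus made up 31.1% of the family's summed level in the hip control and 12.9% in the other library, and Dcn 24.8% and 41.0%. In the knee control Bgn led with 214 CPM per kilobase, ahead of Lum at 118, Dcn at 106 and Fmod at 79.9. The knee library labelled Cbfb-deficient had Bgn at 215, Dcn at 117, Lum at 94.9 and Fmod at 83.1, so Dcn and Lum changed places by this length. Epyc was last in all 4 libraries. With the combined length of all exons of a gene instead, Fmod still led in the hip control (43.5% of the family), Dcn in the other hip library (36.0%) and Bgn in both knee libraries (26.5% and 24.0%), but the order behind them depended on the length used. By that length Fmod (19.1%) stood above Bgn (13.8%) in the hip library labelled Cbfb-deficient, and in both knee libraries Fmod was second and Dcn above Lum, so that Dcn and Lum did not change places. The hip and knee counts list different sets of identifiers and are marked as coming from different counters, so levels across joints are only set side by side.

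**Figure D1:**
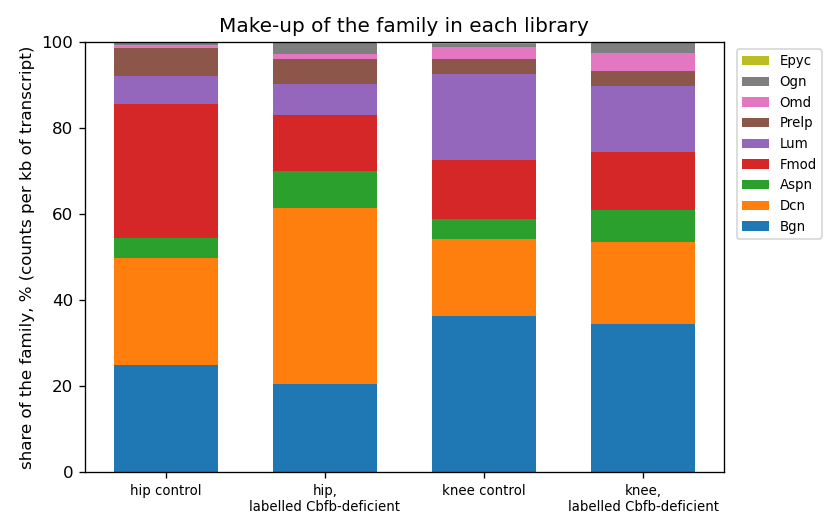
Share of each gene in the summed level of the family (%, counts per kilobase of canonical transcript) in the 4 libraries, 1 bar per library. Fmod takes 31.1% in the hip control and 12.9% in the hip library labelled Cbfb-deficient, and the 2 knee bars differ less, with Bgn at 36.4% and 34.6%.

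As a whole, the 9 genes took 0.109% of the hip control counts and 0.0521% of the counts of the library labelled Cbfb-deficient. In the knee they took 0.192% and 0.207%. The log2 ratio of the summed knee counts was 0.11 by library size and -0.07 after TMM scaling, so its direction depends on the scaling, while in the hip the ratio was -1.02 after TMM scaling.

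In the hip pair, 7 of the 8 genes with at least 10 counts were lower in the library labelled Cbfb-deficient beyond counting error and 1, Ogn, was higher, beside 33.7% lower and 37.3% higher over all genes by the same measure. Fmod, Bgn, Prelp and Lum were called lower, which makes 4 genes called lower and 0 higher. Over all 19856 genes with at least 10 counts, 16.3% were called lower and 20.2% higher, and under upper quartile scaling 24.0% and 14.0%. The median log2 ratio of the 8 genes was -0.84, beside 0.01 over all genes. Of the 6580 genes that had 1000 or more counts in the pair, 7.02% were called lower and 19.0% higher. Ogn (375 and 611 counts) and Omd (157 and 89 counts) lie below that limit.

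Of the class I genes, Dcn led the family per length in the hip library labelled Cbfb-deficient and Bgn in both knee libraries. Bgn encodes biglycan, which binds collagen and growth factors and, when released, Toll-like receptors. It had 179 CPM in the hip control and 61.5 in the library labelled Cbfb-deficient (log2 ratio -1.496, interval -1.57 to -1.43), or 2.82-fold lower. In the knee its levels were 518 and 521 CPM. That gave a log2 ratio of -0.17 after TMM scaling and of 0.0084 when scaled by library size alone, so the knee direction of Bgn depends on the scaling. Dcn encodes decorin, the best studied regulator of collagen fibril shape and a binder of TGF-beta. Its hip levels were 448 and 310 CPM (log2 ratio -0.49, interval -0.52 to -0.45, and -1.80 once the trend over length and GC was removed). In the knee they were 644 and 715 CPM, with a log2 ratio of -0.03 that turned to 0.15 under library size scaling. Aspn encodes asporin, named for a run of aspartate residues and known to restrain TGF-beta in cartilage. It had 32.7 and 25.4 CPM in the hip (log2 ratio -0.32, interval -0.45 to -0.20). The knee went the other way, from 66.0 to 113 CPM (log2 ratio 0.59, interval 0.52 to 0.66).

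The largest fall in the hip was in class II. Fmod encodes fibromodulin, which binds collagen and guides its cross-linking, and is abundant in tendon and cartilage. It had 287 CPM in the hip control and 49.9 in the library labelled Cbfb-deficient (log2 ratio -2.48, interval -2.55 to -2.41), or 5.57-fold lower. That ratio lay at percentile 6.27 of all genes of the pair. In the knee, Fmod had 249 and 259 CPM, with a log2 ratio of -0.13 that turned to 0.06 under library size scaling. Lum encodes lumican, a keratan sulfate proteoglycan of cornea, skin and cartilage. The hip held 48.0 and 22.3 CPM (log2 ratio -1.06, interval -1.18 to -0.94). Lum was also lower in the knee, at 290 and 233 CPM (log2 ratio -0.49, interval -0.54 to -0.45). The interval of Lum thus lay below 0 in both joints.

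Prelp encodes a protein with a basic end that binds heparan sulfate chains and anchors the matrix. Its hip levels were 81.7 and 31.3 CPM (log2 ratio -1.34, interval -1.44 to -1.24). The knee levels of 88.5 and 93.2 CPM gave a log2 ratio of -0.11, which was 0.08 under library size scaling. Omd encodes osteomodulin, or osteoadherin, a keratan sulfate proteoglycan of mineralized tissue. It was scarce in the hip, with 4.08 and 2.57 CPM from 157 and 89 counts, and the log2 ratio of -0.62 had a wide interval (-1.01 to -0.24). In the knee Omd was higher in the library labelled Cbfb-deficient, at 56.4 CPM against 33.4 (log2 ratio 0.57, interval 0.47 to 0.68).

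Both class III genes moved beyond 2-fold in the knee, in opposite directions. Ogn encodes osteoglycin, also called mimecan, a matrix protein first isolated from bone. It had 20.8 CPM in the knee control and 74.8 in the library labelled Cbfb-deficient (log2 ratio 1.66, interval 1.55 to 1.78), or 3.17-fold higher. That ratio lay at percentile 95.3 of all genes of the pair. Ogn was the gene of the family with an interval above 0 in the hip too, at 9.75 and 17.7 CPM (log2 ratio 0.90, interval 0.71 to 1.09), but its hip ratio was -0.28 once the trend over length and GC was removed. Epyc encodes epiphycan, which is made in epiphyseal and growth plate cartilage. It fell from 6.89 to 0.916 CPM in the knee, from 236 to 35 counts (log2 ratio -3.08, interval -3.65 to -2.58), or 8.43-fold lower, at percentile 0.866 of all genes. In the hip libraries Epyc had 2 and 3 counts, at or under the floor of 3 counts (0.0780 and 0.0867 CPM), so this depth allows no ratio.

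**Figure D2:**
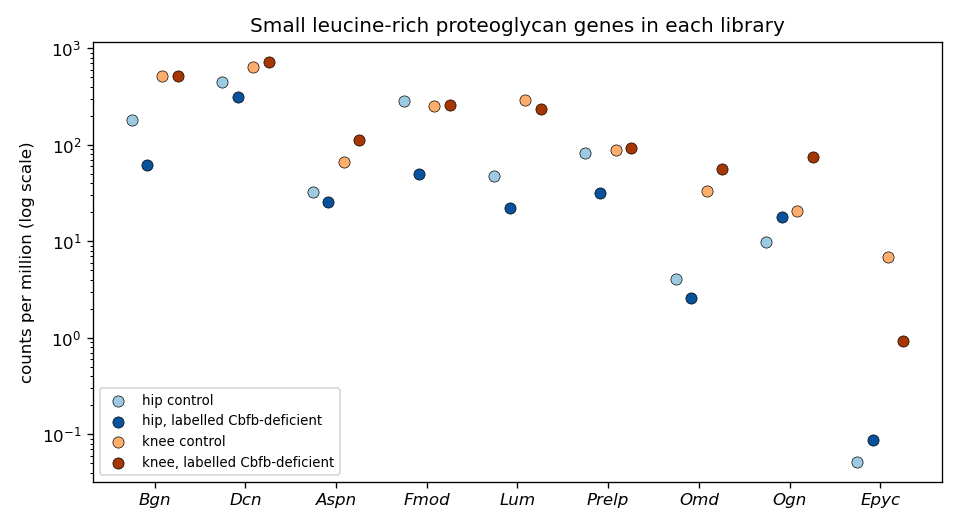
CPM (log axis) of the 9 genes in the 4 libraries, 1 point per library. Dcn is the highest gene in every library by this measure, at 310 to 715 CPM, and Epyc the lowest, with 6.89 and 0.916 CPM in the knee and 0.0520 and 0.0867 CPM in the hip.

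In the knee pair as a whole, 1 of the 9 genes was called higher and 1 lower, beside 9.00% and 6.81% of 21131 genes (12.3% and 4.96% under library size scaling, 7.30% and 8.40% under upper quartile scaling). The median log2 ratio of the family was -0.11, beside 0.02 over all genes. This median was 0.08 under library size scaling, which also moved the median of all genes, to 0.20. Beyond counting error 3 genes were higher (Aspn, Omd and Ogn) and 6 were lower, beside 31.9% and 29.7% of all genes, so the count of higher genes was near the share over all genes. Of the 6, Bgn, Dcn, Fmod and Prelp had ratios of -0.17 to -0.03 and changed sign under library size scaling.

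**Figure D3:**
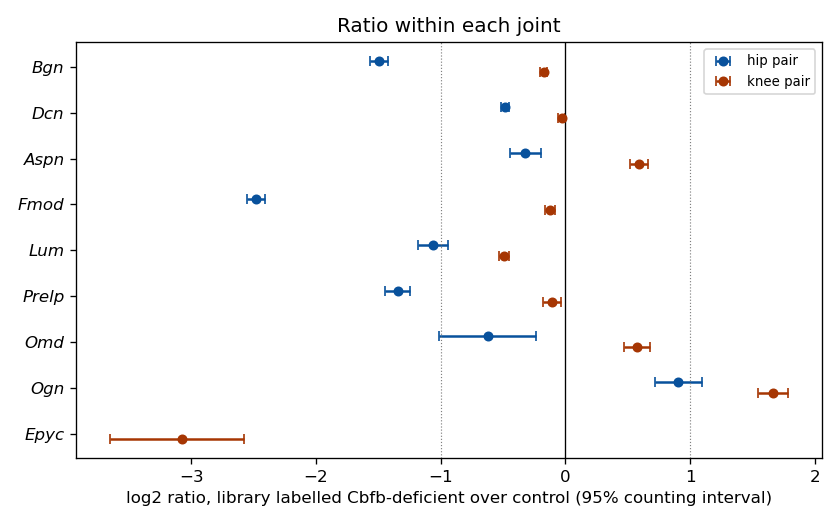
Log2 ratio of the library labelled Cbfb-deficient over its control for each gene, in the hip pair and the knee pair, with bars for the 95% counting interval and dotted lines at a 2-fold difference. In the hip 7 of 8 points lie below 0 and Ogn at 0.90, which turns to -0.28 when the trend over length and GC is removed. In the knee Ogn at 1.66 and Epyc at -3.08 lie beyond 2-fold, and the points of Bgn, Dcn, Fmod and Prelp near 0 turn positive under library size scaling. Epyc has no hip point, because its counts were at the floor.

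The hip ratios were lowest for the members richest in GC. Prelp, Bgn and Fmod, whose canonical transcripts have 51.9%, 52.5% and 53.7% GC, had the 3 lowest ratios. Lum with 41.9% GC had -1.06. The 4 genes under 40% GC that had at least 10 counts (Aspn, Omd, Ogn and Dcn) lay between -0.62 and 0.90. Taking all genes measured in the hip, median ratios on the log2 scale were 1.10 for 995 genes with 30 to 40% GC, 0.44 for 8693 genes with 40 to 50% and -0.30 for 9021 genes with 50 to 60%. In the knee these medians were -0.03, 0.01 and 0.05. Length went with the ratios as well: for transcripts of 5000 bases or more the median was 0.51 over 4150 genes in the hip and 0.22 over 4045 in the knee. The members of that length are Dcn (6104 bases) and Ogn (5174 bases), with hip ratios of -0.49 and 0.90. Once the dependence on length and GC content was taken out, 7 of the 8 genes were called lower in the hip, beside 15.5% of 19585 genes. The ratios were then -2.16 for Fmod, -1.80 for Dcn, -1.63 for Lum, -1.49 for Omd, -1.32 for Prelp, -1.16 for Aspn and -1.15 for Bgn. Ogn turned to -0.28 in the hip under this correction, so its rise there depends on the processing. Its knee ratio was 1.56 and that of Epyc -2.97. The part of this trend in the members' ratios was not tested beyond that correction.

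Apart from Bgn on the X chromosome (72527208 to 72539541 in GRCm39), the family lies in 3 clusters, and nearby genes of related sequence were read with it. Bgn is ENSMUSG00000031375 and lies on the plus strand, as do the other members except Prelp, and positions are those of the whole gene, exons and introns included. The chromosome 13 cluster spans 122 kb with Ecm2, Aspn (ENSMUSG00000021388, 49697609 to 49721057), Omd (ENSMUSG00000048368, 49735938 to 49746298) and Ogn (ENSMUSG00000021390, 49761349 to 49780412) in this order. In the knee all 4 were higher in the library labelled Cbfb-deficient. Ecm2, which encodes a leucine-rich repeat matrix protein outside the list of 9, rose from 534 to 1962 counts there (log2 ratio 1.54, interval 1.40 to 1.68). In the hip Ecm2 had a ratio of -0.38, near the -0.32 of Aspn. The chromosome 10 cluster spans 203 kb with Dcn (ENSMUSG00000019929, 97315275 to 97358155), Lum (ENSMUSG00000036446, 97400990 to 97408577), Kera and Epyc (ENSMUSG00000019936, 97479853 to 97518316). Kera encodes keratocan, a keratan sulfate proteoglycan known from cornea and tendon, and it fell in the hip from 352 to 37 counts (log2 ratio -3.03, interval -3.58 to -2.56). Its knee ratio was 0.47, from 108 and 190 counts, while its neighbour Epyc fell. The chromosome 1 cluster spans 151 kb with Prelp (ENSMUSG00000041577, 133837335 to 133857971, minus strand), Optc and Fmod (ENSMUSG00000041559, 133964992 to 133976015). Optc, an opticin gene of the eye, had at most 5 counts in a library and no ratio is given. The grouping by chromosome, and with it Optc, was chosen after values were seen.

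**Figure D4:**
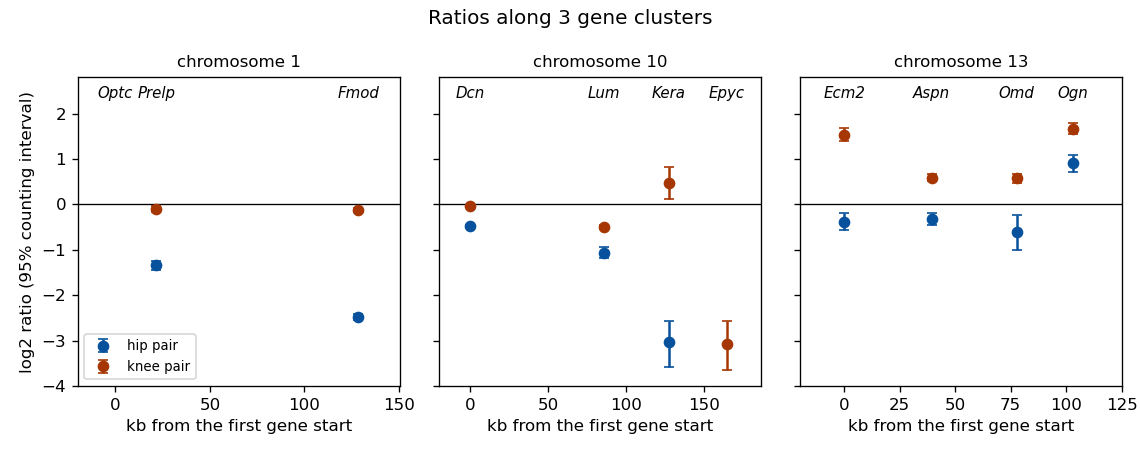
Log2 ratio with its 95% counting interval against the distance in kb from the first gene start, along 3 clusters, hip pair and knee pair. On chromosome 13 the 4 knee points lie above 0, between 0.57 and 1.66. On chromosome 10 Kera lies at -3.03 in the hip and Epyc at -3.08 in the knee. Optc and the hip point of Epyc are not drawn for want of counts, and Prelp, Fmod and Dcn in the knee turn positive under library size scaling.

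Some exons overlap genes on the opposite strand, and the counting program's use of strand is not given in the sources used here. Ogn shares 1155 of its 6135 exon bases with Cenpp and Aspn 267 of 2927. Cenpp had 65 and 30 counts in the hip pair, and 167 and 158 in that of the knee, fewer than Ogn in each library. Epyc shares 1355 of its 2710 exon bases with the antisense gene Gm10754, which had no count in either knee library. Reads from the overlapping parts cannot be assigned with certainty.

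The partners of the family were read from lists of genes. Values are after TMM scaling. The shares to read each count against are those over all genes, 20.2% called higher and 16.3% lower for hip libraries, and for knee libraries 9.00% and 6.81%. A largest rise or fall is that among called genes with at least 100 counts in 1 of the libraries. Of 12 collagens of the fibril, 7 were called lower and 0 higher in the hip, with a median log2 ratio of -1.18. Col1a1, the main collagen of bone, tendon and skin, had 758 and 157 CPM there, a log2 ratio of -2.23, and Col1a2 had -2.05. In the knee 4 of the 12 were called lower, with the largest fall in Col2a1 (-1.74), and Col1a1 (-1.06) and Col1a2 (-1.32) among them. Library size scaling left 2 of these 4, with Col1a1 and Col11a1 below 2-fold. In the hip Col2a1 had -0.44. The median of the list was 0.17 in the knee.

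Among 18 genes that process and cross-link collagen, 2 were called higher and 6 lower in the hip, and 1 higher and 0 lower in the knee. Under upper quartile scaling the hip count was 0 higher and 9 lower, as Lox and Plod2 fell short of 2-fold. Pcolce, the enhancer of procollagen cleavage, had the largest hip fall of the list, from 3283 to 769 counts (log2 ratio -1.90), and Lox, the lysyl oxidase whose action fibromodulin guides, the largest rise, from 242 to 516 counts (1.29). Of 9 matrix proteases, 2 were called lower in the hip (3 under upper quartile scaling) and 3 in the knee (2 under library size scaling, without Mmp14). In the hip these were Mmp3, from 54 to 14 counts (-1.71), and Mmp2, from 4374 to 1410 counts (-1.44). In the knee the largest fall was that of Mmp13, the collagenase of hypertrophic cartilage, from 27871 to 10772 counts (-1.71).

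Of 25 genes for the linkage region and for chondroitin or dermatan sulfate, 4 were called higher and 4 lower in the hip, and 2 higher and 0 lower in the knee, with median log2 ratios of -0.05 and 0.14. The hip counts, 2 higher and 7 lower under upper quartile scaling, are near the shares over all genes. Chsy3, a chondroitin synthase, had 211 and 6 counts in the hip (log2 ratio -4.83, interval -6.40 to -3.79). Csgalnact1, which starts the chondroitin chain, had the largest hip rise, from 43 to 122 counts (1.69). Chpf2, a chondroitin polymerizing factor, had a ratio of 1.32 in the knee, where Chsy3 had 38 and 121 counts, also at 1.32. Of 9 genes for keratan sulfate and tyrosine sulfation, 3 were called lower in the hip (4 under library size or upper quartile scaling) and 1 in the knee (0 under library size scaling). The median ratios of the 9 were -0.58 and 0.08. The 3 hip calls rest on few counts, 41 and 6 for B3gnt2, 35 and 3 for B3gnt7, and 36 and 3 for Chst5. Beyond counting error 6 genes of the list were lower in the hip and 3 higher.

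Among 12 TGF-beta ligands, receptors and latency proteins, 2 were called higher and 2 lower in the hip (1 and 3 under upper quartile scaling, without the rise of Tgfbr3) and 1 higher in the knee (2 under library size scaling). Tgfbr1, a signaling receptor, rose by 2.16 on the log2 scale in the hip. Ltbp4, a latency protein, had -1.23 in the hip and 1.12 in the knee. Of 10 receptors that decorin or biglycan bind, 3 were called higher and 1 lower in the hip and 0 in either direction in the knee. Tlr4 had the largest hip rise, from 63 to 197 counts (1.83), and Tlr2 the largest fall, from 142 to 49 (-1.33). Of 9 other leucine-rich repeat matrix genes, 4 of the 7 with at least 10 counts were called lower in the hip and 3 of 8 higher in the knee (2 under upper quartile scaling, without Podn). Nyx, among these 3, had only 3 and 17 counts. Beyond counting error 5 genes of this list were higher in the knee and 3 lower. Chad, the cartilage protein chondroadherin, was picked out after its values were seen and had 66.7 and 18.5 CPM in the hip and 391 and 713 CPM in the knee.

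Markers of other cell types differed within both pairs, in either direction. Counts of their genes are those beyond counting error, to be read against 37.3% higher and 33.7% lower over all genes of the hip pair and 31.9% and 29.7% of the knee pair, and several lists lie near these shares. A fibroblast list of 12 genes, which holds Col1a1 and Col1a2, summed to 0.214% and 0.0576% in the hip pair, with 10 genes lower and 1 higher beyond counting error, and Pdgfra, a defining marker, at 14.5 and 25.7 CPM. In the knee that list took 1.95% and 1.10%, with 8 genes higher and 3 lower. Most of that knee sum was Col1a1 (9213 and 5010 CPM) and Col1a2 (9292 and 4216 CPM), both lower there. Tendon and ligament genes (7) summed to 0.0227% and 0.0127% in the hip pair, with 5 lower and 2 higher, and Tnmd, a tendon marker, fell from 349 to 64 counts. In the knee they took 0.0172% and 0.0318%, with 5 higher and 1 lower. Scx, a transcription factor of tendon, had log2 ratios of -0.41 in the hip and -0.80 in the knee. Osteoblast and osteocyte genes (12) took 0.0192% and 0.0122% in the hip pair, with 5 lower and 3 higher, and 0.510% and 0.304% for the knee, with 7 lower and 4 higher, and Bglap, the osteocalcin gene, fell by 3.50 on the log2 scale in the hip and by 1.95 in the knee. Superficial zone genes (6) took 0.0346% and 0.0374% in the hip, with 3 higher and 3 lower, and 0.0653% and 0.175% in the knee with 6 of 6 higher. Prg4, the lubricin gene of that zone, had ratios of 1.14 in the hip (below 2-fold under upper quartile scaling) and 1.51 in the knee. Muscle genes were higher in 20 of 20 and adipocyte genes in 12 of 12 cases in the knee library labelled Cbfb-deficient. Adipoq, the adipocyte hormone gene, had 46.5 and 84.5 CPM there. In the hip 9 muscle genes were higher and 10 lower, and 6 adipocyte genes higher and 5 lower. Erythroid genes (9 found) summed to 0.589% and 0.222% in the hip, all 9 lower, and to 9.99% and 4.94% in the knee, with 7 lower. Osteoclast genes (8) took 0.344% and 0.191% in the knee, with 7 lower and 0 higher. In the hip they took 0.00670% and 0.00557%, with 3 lower and 2 higher. Macrophage genes (8) took 0.0253% and 0.0157% in the hip, 7 of them lower, and 0.324% and 0.365% for the knee, with 5 lower and 3 higher. Endothelial genes (8) took 0.0277% to 0.0466% in the 4 libraries, with 3 higher and 3 lower in the hip and 5 higher and 3 lower in the knee. The part of a changed tissue mixture in the members' ratios was not tested.

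**Figure D5:**
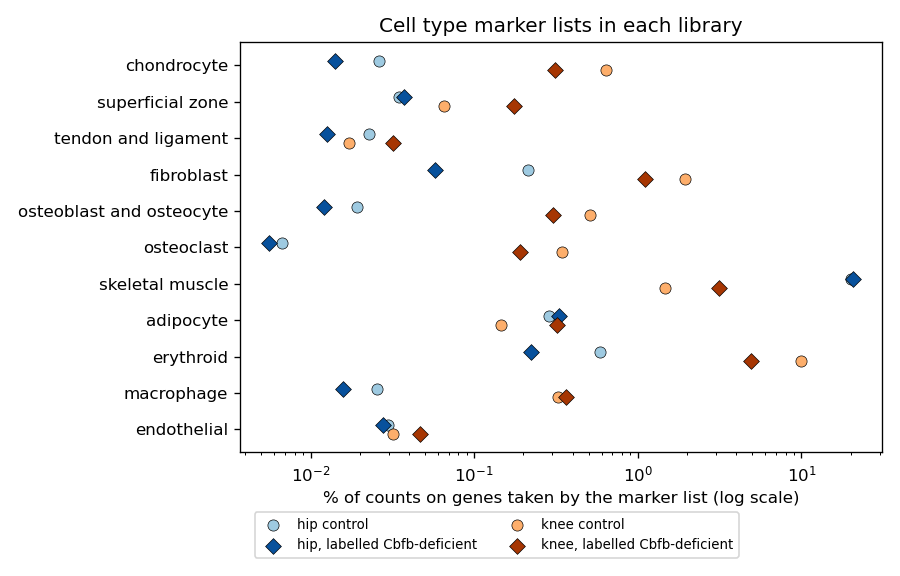
Percent of the counts on genes (log axis) taken by each of 11 marker lists in the 4 libraries, circles for controls and diamonds for libraries labelled Cbfb-deficient. Muscle genes take 19.95% and 20.6% of the hip libraries, and chondrocyte genes 0.0262% and 0.0140%, while the knee libraries hold 0.638% and 0.313% for chondrocytes.

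The genes whose CPM profile over the 4 libraries lay nearest the median profile of the 8 members with at least 10 counts in each library were Cacna1g, Palm, 6530402F18Rik, Myl9 and Fbxo46, out of 9642 genes with at least 100 counts in each. Their Euclidean distances on the centred log2 scale were 0.179 to 0.289. Palm, for example, had 40.2 and 20.8 CPM in the hip and 82.5 and 124 CPM in the knee. Such a profile also carries any difference in how the hip and knee reads were counted.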

How the data were processed

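RNA of mouse articular cartilage from hip or knee was sequenced after poly-A selection, with 1 library in each of 4 groups set by the genotype and treatment labels. The authors deposited raw counts, 1 whole number for each Ensembl gene. Per the methods, reads were aligned with STAR to GRCm39, while the submitters' processing notes name mm10, FastQC 0.11.3 and STAR 2.0. The hip values end with the summary lines of HTSeq, which held 25.8% and 24.6% of the reads listed and were left out. The names of the deposited counts mark the hip as HTSeq and the knee as fCount, which is not spelled out, and both annotations and the use of strand are not given in the sources used here. The extraction notes in the labels name osteoblasts, and the tissue labels were followed.

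Identifiers were matched to symbols, positions and transcripts of GENCODE M39 (GRCm39), with a match for 91.8% (hip) and 92.6% (knee) of them. Transcript length and GC content are those of the Ensembl canonical transcript. Promoter sequences are from RefSeq. TMM scaling within each pair used edgeR 4.0.16 in R 4.3.3, and DESeq2 1.42.0 size factors were an alternative. Ratios, intervals and plots used Python 3.11.15, numpy 2.4.6, pandas 2.3.3, scipy 1.17.1 and matplotlib 3.10.9. Steps were tested on simulated counts.

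The members, the 8 pathway lists, the 11 marker lists, the rules and the alternatives were chosen with earlier results of these data known. All 9 members are named. Of each pathway list, the largest rise and largest fall among called genes are named if 1 library held 100 or more counts, with Col1a1, Col1a2 and Col2a1, defining markers and the 5 genes of nearest profile. For the alternatives added after seeing the data, levels used the length of all exons and the pathway lists and the summed counts of the family were computed under the other scalings. Protein features were not computed here. Intervals and floors cover counting error only.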

Additional observations from a re-analysis of the deposited data

Results flagged for a closer look

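Aspn and Omd lay beyond counting error in opposite directions in the 2 joints. Aspn had a log2 ratio of -0.32 in the hip pair and 0.59 in the knee pair. For Omd the ratios were -0.62 in the hip and 0.57 in the knee. Once the trend over length and GC was removed, Aspn had -1.16 in the hip and 0.71 in the knee. Omd then had -1.49 and 0.79. With 1 library per condition the difference between the joints was not tested. The joints also differ in age, Cre line, control and the marked counter, which cannot be told apart.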

How the results depend on the processing

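Calls of members were 4 in the hip and 2 in the knee under every scaling, added count and count filter run. The planned lower fold limit called 6 members in the hip (1 higher and 5 lower, beside 28.1% and 23.5% of all genes) and 3 in the knee (2 higher and 1 lower, beside 16.4% and 13.7%). After correction for length and GC content 7 were called in the hip, the median ratio was -1.40 in the hip and -0.21 in the knee, and Ogn in the hip was -0.28. Upper quartile scaling gave medians of -1.18 and -0.22, and shifted the median of all genes to -0.33 in the hip and -0.10 in the knee. Without a filter on low counts the hip median was -0.62, since Epyc then enters. Library size scaling gave a knee median of 0.0753, with 0.0084 for Bgn, 0.15 for Dcn, 0.0564 for Fmod and 0.0753 for Prelp, and shifted the median of all genes there to 0.20. By the length of all exons, an alternative chosen after seeing the data, the leading shares of 31.1%, 41.0%, 36.4% and 34.6% became 43.5% (Fmod, hip control), 36.0% (Dcn), 26.5% and 24.0% (Bgn, knee). Recounted after seeing the data, the calls of 7 of the 8 pathway lists in the knee changed in number: under library size scaling keratan sulfate and tyrosine sulfation from 1 to 0, collagens from 4 to 2, proteases from 3 to 2, TGF-beta from 1 to 2 and the chondroitin and dermatan sulfate enzymes from 2 to 3, and under upper quartile scaling collagen processing from 1 to 2 and the other leucine-rich repeat genes from 3 to 2. In the hip, the total of calls of a list changed by 1 at most, while the split of higher and lower calls moved under upper quartile scaling as given beside the lists. Of the ratios of single genes under the alternatives, 99 stayed within their counting interval, 32 left it without a change of sign and 5 changed sign. The cause was not tested. No fit over both joints together was run. No library could be left out, because each condition has 1 library. Depth limits Epyc and Omd in the hip.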
